A study of Rattus norvegicus with 35 samples.

Results

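The rat olfactory receptors of the proximal block of chromosome 1 were examined in the olfactory epithelium of newborn, adult and old Brown Norway rats. Members were the array probes whose gene name begins with Olr, or whose description contains the words olfactory receptor, and whose position in the array files lies on chromosome 1 (rat genome build rn3) below base 190000000. The rule found 200 of the 1136 receptor probes on the array, and all 200 were kept whatever their level. They carry 199 gene names, because Olr196 has 2 probes. By the current RefSeq symbols, 114 members belong to class I (families 51 to 56) and 78 to class II, and 8 carry no family in their symbol and were left without a class. No class I probe lay outside the block, so class I and this part of chromosome 1 cannot be told apart here.

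Each olfactory sensory neuron expresses one receptor gene, usually from one of its alleles, out of a very large family scattered over many chromosomes. The receptors are G-protein-coupled and signal through Gnal (the olfactory stimulatory G protein alpha subunit), adenylyl cyclase 3 and a cyclic nucleotide-gated channel. Class I receptors resemble those of fish and are held in a single mammalian cluster around the beta-globin genes, whereas class II receptors, the majority in mammals, form clusters on many chromosomes.

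The 35 arrays came from 27 rats. Newborn rats were 3 to 5 days old, of unrecorded sex, and came from 4 litters: L1 with 4 pups and L2, L3 and L4 with 5 pups each, with RNA from 1 side of the nose per pup. Adult rats (4 males, 9 weeks old) and old rats (4 males, 22 months old) gave 1 array for each side, and both arrays of a rat were averaged, so the rat was the replicate. No rat carried a treatment or an altered allele. A level below is the log2 of a probe's background-subtracted intensity over the median intensity of its array, so 0 is the array median, and levels of different probes are not compared. Values under 0.01 of the median were set to 0.01, a log2 of -6.64. A probe was above background on an array when the deposited flags marked its spots as uniform, unsaturated and significantly positive, and as well above background. A difference was called at a Benjamini-Hochberg adjusted p under 0.01, over all probes of the array, in a limma fit to the 6 groups with the 4 litters weighted equally as newborn. In whole tissue, fewer neurons expressing a receptor and less RNA per neuron cannot be told apart.

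Adult arrays were scanned on 2 days of their own, and their spots were extracted with an earlier release of the Feature Extraction software. They were also brighter: the median intensity of an array was 81.6 to 162 for adult rats, 42.1 to 87.7 for newborn rats and 37.1 to 55.3 for old rats. Age and scan day cannot be told apart for the adult rats, and L1 is the only litter that shared a scan day with the old rats. Cell type markers moved with age as well. All 7 measured markers of mature olfactory sensory neurons were called lower in newborn than in adult and old rats. The log2 of their summed levels, in which bright probes weigh most, was 7.76 to 8.90 in newborn, 10.34 to 10.77 in adult and 10.94 to 11.41 in old rats. All 6 markers of immature neurons were called higher in newborn rats. All 5 globose basal cell markers and all 5 skeletal muscle markers were also called higher in newborn rats. The log2 of the summed muscle levels was 4.03 to 9.04 in newborn, -0.30 to 0.87 in adult and -0.70 to 0.09 in old rats. None of the 3 horizontal basal cell markers was called, and 3 of 5 sustentacular and gland markers were called lower in newborn than in adult rats. Both measured red cell markers were called higher in newborn than in adult rats, and 1 of these (Alas2) higher than in old rats. Of 5 immune markers, 3 were called higher in newborn than in adult rats and 2, Cd74 and Ptprc, lower (log2 -2.58 and -1.17), and against old rats 1 was called higher and the same 2 lower. Bone and cartilage markers moved most against old rats: 1 of 5 was called higher in newborn than in adult rats, but 4 of 5 higher and 1 lower than in old rats. The log2 of the summed bone and cartilage levels was 11.04 to 12.69 in newborn, 10.96 to 11.83 in adult and 8.68 to 9.57 in old rats. Adult rats exceeded old rats 16.8-fold for Ibsp and 10.1-fold for Col1a1. None of 3 markers of ciliated respiratory cells was called between newborn and adult rats, and 1 was called lower in newborn than in old rats. Which part of the receptor differences goes with cell makeup or with dissected neighbouring tissue was not tested.

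Probe sequences are printed for the members on which the results turn, each 60 bases long, 5′ to 3′ in the sense of the transcript, with its rn3 position and strand. The array files give the gene for each probe but not the exon. The first 4 belong to receptors that stood higher in newborn than in adult rats: Olr156 (Or52ac1, class I) at chr1:162342797-162342856 on the minus strand, Olr201 (Or52b1, class I) at chr1:163165796-163165855 on the minus strand, Olr43 (Or51r1, class I) at chr1:160288091-160288150 on the plus strand and Olr246 (Or5p4, class II) at chr1:165568874-165568933 on the plus strand.
Olr156: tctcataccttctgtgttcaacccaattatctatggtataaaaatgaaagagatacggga
Olr201: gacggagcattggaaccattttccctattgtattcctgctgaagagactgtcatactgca
Olr43: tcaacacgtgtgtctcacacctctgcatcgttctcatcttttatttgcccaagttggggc
Olr246: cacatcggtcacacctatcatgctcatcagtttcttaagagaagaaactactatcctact

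The next 4 belong to receptors that were called lower in newborn than in adult and old rats. Olr12 (Or13g1, class II) lies at chr1:142417820-142417879 and Olr141 (Or51k1, class I) at chr1:161949570-161949629, both on the minus strand. Olr223 (Or6b9, class II) lies at chr1:164320866-164320925 on the minus strand and Olr3 (Or10am5, class II) at chr1:65821829-65821888 on the plus strand.
Olr12: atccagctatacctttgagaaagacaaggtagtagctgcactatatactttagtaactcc
Olr141: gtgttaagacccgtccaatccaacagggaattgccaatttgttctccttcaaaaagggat
Olr223: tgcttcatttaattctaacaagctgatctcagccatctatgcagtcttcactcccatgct
Olr3: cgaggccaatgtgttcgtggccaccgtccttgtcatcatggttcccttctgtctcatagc

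The block consists of 5 runs of receptors separated by gaps of more than 1000000 bases. Olr1 stands alone at 64299968, a run of 6 members up to Olr8 spans 65734334 to 65884923, a run of 16 from Olr10 to Olr34 spans 141231244 to 143001569, and 3 members from Olr35 to Olr37 lie between 157154054 and 157201807. The last and longest run holds 174 members, from Olr39 to Olr285, between 160152312 and 166659465, and the next receptor probe on the chromosome starts at 200115886. In that run class I comes first, as 114 members from Olr39 to Olr202 with 3 members of unassigned class among them, and the beta-globin gene Hbb at 161701424 lies between the first 61 and the other 53. Class II follows from 163873024, with 55 members from Olr203 to Olr285. Family 52 contributed 66 members and family 51 contributed 40, and the largest class II subfamily was 5p with 26 members. The strands were nearly balanced, with 98 members on the plus and 102 on the minus strand.

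The number of members above background was lowest in the litters and highest in old rats. Of 200 members, pups of L1 had 91.8 ± 23.1 (SD, n = 4) above background, pups of L2 had 65.8 ± 11.2 (n = 5), and those of L3 and L4 had 87.0 ± 18.4 and 86.0 ± 7.91 (n = 5 each). In adult rats 106 ± 7.40 (n = 4) were above background and in old rats 117 ± 7.50 (n = 4). The pups ranged from 51 to 111 with a median of 82, so that some pups of L1, L3 and L4 reached the range of the adult rats (94.5 to 110.5). Each pup gave a single array, whereas adult and old values average both sides of a rat, so these ranges and SDs are not alike. Single arrays ran from 59 to 131 in adult rats and from 102 to 137 in old rats. Both classes kept this order of groups. Class I counts were 35.0 to 50.2 in the litter means, 54.8 ± 4.86 in adult and 65.8 ± 5.52 in old rats, and class II counts were 27.0 to 36.8, 45.5 ± 2.97 and 46.1 ± 2.10. The mean step from adult to old was 54.8 to 65.8 for class I, wider than either SD, and 45.5 to 46.1 for class II, narrower than either SD. Single arrays spread more, with class I counts of 24 to 73 in adult and 55 to 79 in old rats. Neither step was tested.

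**Figure D1:**
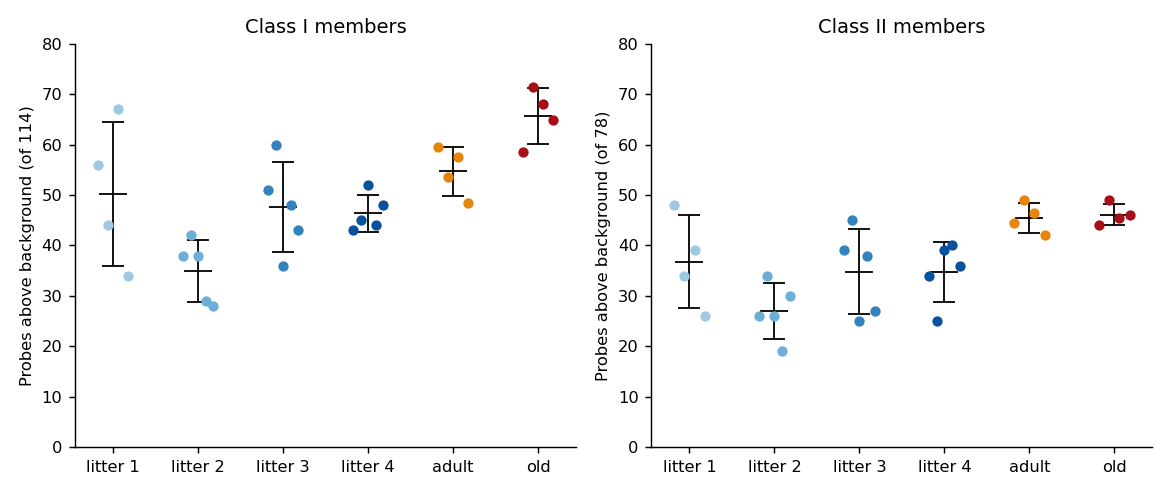
Number of block members above background in each rat, for class I (of 114 probes) and class II (of 78 probes). Points are rats (the mean of both sides for adult and old rats), and bars give the group mean with its SD; the L2 pups have the lowest mean in both classes (35.0 and 27.0) and old rats the highest (65.8 and 46.1).

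By the thresholds of the study's methods, a receptor was expressed in a litter when it was above background on at least 3 arrays, and in adult or old rats when it was so on at least 6 of 8. Expressed members numbered 83, 66, 89 and 86 for the litters L1 to L4, 94 for adult rats and 105 for old rats. In the same order, 77, 111, 81, 91, 54 and 50 members were above background on no array of the group. Expressed in all 6 groups were 54 members, and 33 were above background on every one of the 35 arrays, against 29 on none. Olr246 was the only member expressed in all 4 litters and in neither adult nor old rats. The reverse pattern, expressed in adult and old rats and in no litter, was found for 11 members: Olr6, Olr12, Olr104, Olr141, Olr144, Olr154, Olr175, Olr208, Olr215, Olr223 and Olr231. How often all probes show either pattern is not given here, so neither is read as particular to the members. Probes above background on all arrays had a median GC content of 45.0%, those on none 38.3%, and all members 41.7%.

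Between newborn and adult rats, 16 of the 200 members were called higher in newborn rats (8% of members, where 26.8% of all 40991 probes tested were) and 56 were called lower (28%, where 19.8% of all probes were). The median log2 difference was -0.44 over the members and 0.10 over all probes. Class I had 9 members called higher and 24 lower of 114 with a median of -0.30, and class II 6 higher and 31 lower of 78 with a median of -0.66. Over the 936 receptors elsewhere in the genome, 59 were called higher and 423 lower, with a median of -0.92. Every pup lay below every adult rat for 27 members (13.5%; 10.8% of all probes), and 22 of these 27 were class II, against 4 of class I (Olr46, Olr142, Olr149 and Olr184), and every pup lay above every adult rat for 3 members, Olr41, Olr68 and Olr156 (15.9% of all probes). Of the 16 called higher, 9 were well above background on at least 1 array of both age groups and the others only in newborn rats, 3 of these with a lower bound on the fold and 4 (Olr41, Olr167, Olr168 and Olr180) too close to background for one. The count of 16 was 10 without adult rat 14, 8 without adult rat 16, and 4 when values under 0.25 of the array median were set to 0.25.

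Among the receptors called higher in newborn rats with a measured fold or a bound, Olr156 was furthest from the adult rats. Its level in the 19 pups ran from -2.77 over a median of -1.26 to -0.29. The adult rats read -4.05, -4.96, -4.40 and -4.84, and the old rats -5.56, -2.70, -4.45 and -5.46. All 19 pups stood above all adult rats and 18 stood above all old rats. The probe was above background in 13 of 19 pups (2 of 4 for L1, and 3, 4 and 4 of 5 for L2 to L4) and on no adult or old array, so the difference is a bound, at least 2.03-fold against adult rats (limma adjusted p = 3.72e-07) and at least 1.76-fold against old rats (adjusted p = 5.43e-07). Within the shared scan day L1 was also called above the old rats (adjusted p = 1.82e-04), with no measured size because the old rats were below background. Both calls of all newborn rats were lost when values under 0.25 of the array median were set to 0.25 (log2 0.73 in each, adjusted p = 0.0201 and 0.0210).

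Olr201, which closes the class I stretch together with Olr202, ran from -3.54 over -1.40 to -0.46 in pups. It read -2.34, -3.65, -2.41 and -3.84 in adult rats and -3.81, -3.19, -4.39 and -3.76 in old rats, so the pups overlapped both groups. It was above background in 15 pups, on 2 adult arrays and on no old array. Newborn rats exceeded adult rats by 1.36 ± 0.38 (log2, SE; limma adjusted p = 0.00377) and old rats by at least 1.37-fold (adjusted p = 6.27e-05). The call against adult rats was lost without adult rat 14 (log2 1.16, adjusted p = 0.0266) or without adult rat 16 (log2 1.10, adjusted p = 0.0324), and also with litter means in place of pups (adjusted p = 0.0209) and with a random block for the rat (0.0304) or the slide (0.0434). The call against old rats was lost with the floor of 0.25 (adjusted p = 0.0496).

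Olr246, of the 5p subfamily of class II, read -2.17 to -0.34 in pups with a median of -1.10. The adult rats read -1.93, -2.41, -2.30 and -2.12 and the old rats -2.44, -0.80, -1.81 and -1.25. Adult rats lay in the lower part of the newborn range and old rats spread across it. The difference was 0.94 ± 0.28 against adult rats (limma adjusted p = 0.00594) and 0.33 ± 0.28 against old rats (adjusted p = 0.352), and it was above background in 15 pups, on 3 adult arrays and on 5 old arrays. The first call was lost without adult rat 14, 15 or 16 (log2 0.86 to 0.96, adjusted p = 0.0148 to 0.0269). It was lost too with arrays scaled to the 75th percentile (log2 0.80, adjusted p = 0.0135), with quantile normalization (0.0133), with normexp (0.0945), with the floor of 0.25 (0.0636), with litter means (0.0255) and with the slide as a random block (0.0210).

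Olr43, a class I receptor near the start of the long run, was above background on every array and followed neither of these patterns. Pups ran from -0.59 over 0.35 to 1.21, adult rats read -0.73, -1.58, -0.47 and -0.75, and old rats 0.11, 1.05, 0.80 and 0.82. Adult rats were the low group, and newborn and old rats overlapped. Newborn rats exceeded adult rats by 1.19 ± 0.24 (limma adjusted p = 1.46e-04) and differed from old rats by -0.39 ± 0.24 (adjusted p = 0.174), while adult rats were below old rats by 1.58 ± 0.30 (log2 -1.58, adjusted p = 1.80e-04). The other members measured in both groups and called higher in newborn than adult rats were Olr20 (log2 0.94), Olr37 (0.68), Olr59 (0.90), Olr150 (0.74), Olr247 (0.61) and Olr255 (0.79). Olr68 and Olr252 were above background in 6 and 7 pups and on no adult or old array, with bounds of 1.19-fold and 1.06-fold, and Olr252 lost the call without adult rat 16 (log2 1.77, adjusted p = 0.0122). With the higher floor of 0.25, Olr68, Olr201 and Olr252 were not called against adult rats (adjusted p = 0.181, 0.0692 and 0.565).

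**Figure D2:**
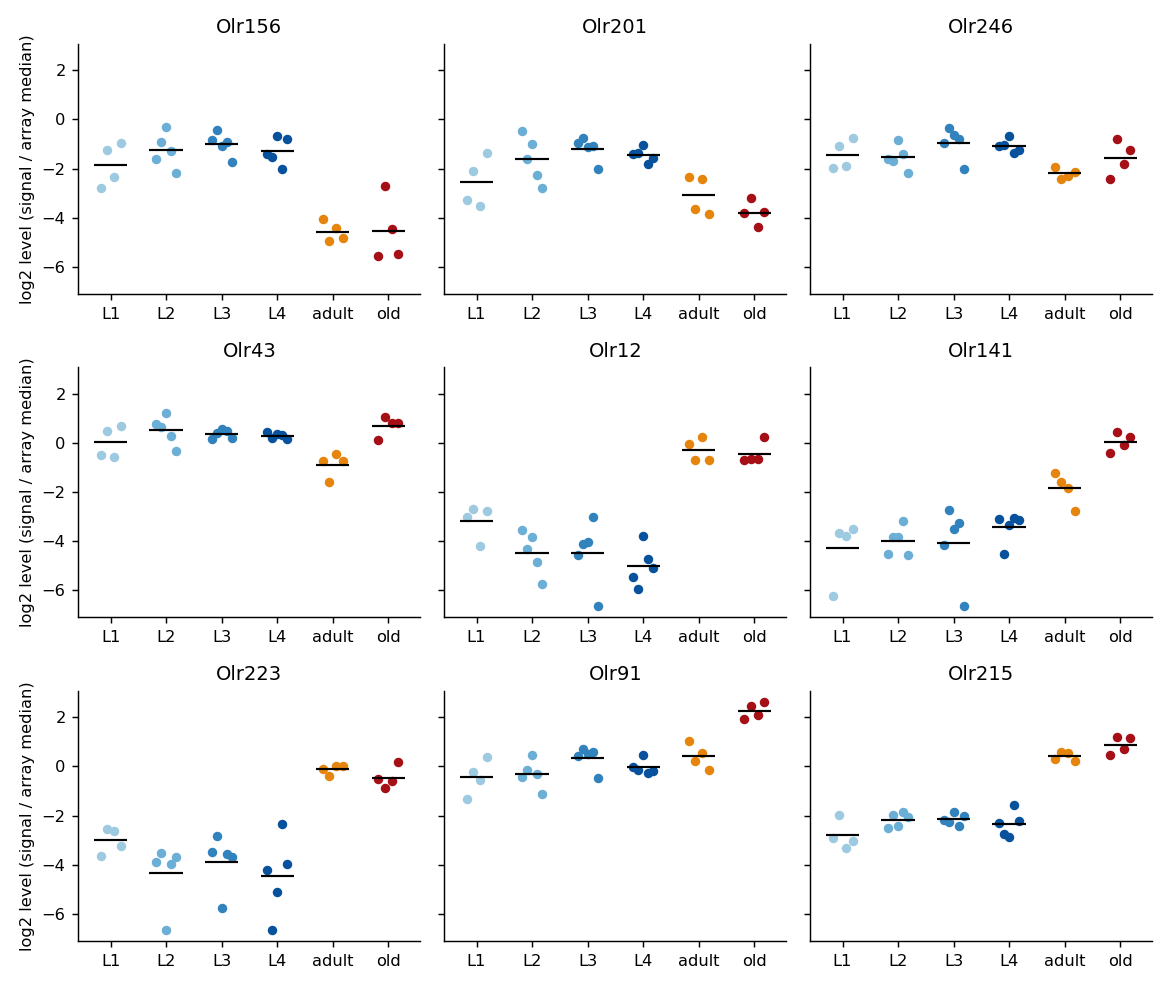
Level of 9 block members in each rat, as log2 of background-subtracted intensity over the array median (y axis), by group (x axis). Points are rats and horizontal bars group means; Olr156 is highest in the litters, Olr12, Olr141, Olr215 and Olr223 are lowest in the litters, and Olr91 is highest in old rats (1.93 to 2.61).

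Among receptors called lower in newborn than in adult rats, Olr12 was above background in no pup and on all 8 adult and all 8 old arrays: pups read -6.64 to -2.69 with a median of -4.20, adult rats -0.06, -0.68, 0.23 and -0.71, and old rats -0.69, -0.67, -0.67 and 0.24. It was at least 4.04-fold lower in newborn than in adult rats (limma adjusted p = 1.01e-07) and at least 3.65-fold lower than in old rats (adjusted p = 2.42e-07). Olr223 had the same flags, with pups at -6.64 to -2.36 (median -3.69), adult rats at -0.11, -0.37, 0.01 and 0.01, and old rats at -0.52, -0.88, -0.59 and 0.17. Its bounds were 4.55-fold (adjusted p = 3.58e-06) and 3.60-fold (adjusted p = 1.55e-05). For both genes no pup reached the lowest adult or old rat.

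Olr141, a class I receptor, was likewise above background in no pup, and its adult and old levels differed from each other in range. Pups read -6.64 to -2.73 (median -3.65), adult rats -1.24, -1.57, -1.84 and -2.75, and old rats -0.39, 0.43, -0.09 and 0.23. Newborn rats were at least 1.38-fold below adult rats (limma adjusted p = 0.00118) and at least 5.13-fold below old rats (adjusted p = 5.72e-07). The first call was lost with the authors' deposited values (log2 -2.20, adjusted p = 0.0114), and the difference of -1.89 ± 0.65 between adult and old rats was not called (adjusted p = 0.0223), although the 4 adult rats lay below the 4 old rats. Olr8 and Olr24 were above background in no pup, with bounds of 1.48-fold and 1.32-fold below adult rats, and for Olr24 a bound of 3.51-fold below old rats. Olr220 was above background on 6 adult arrays only, at least 1.70-fold higher there than in newborn rats (adjusted p = 8.88e-06).

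Several neighbours of Olr223 in the class II stretch moved the same way. Olr224, a family 6 receptor like Olr223, read -3.05 to -0.35 in pups (median -1.30), 1.74, 1.89, 1.81 and 1.61 in adult rats and 2.40, 2.27, 2.40 and 3.35 in old rats. That is 9.21-fold lower in newborn than in adult rats (log2 -3.20 ± 0.36, limma adjusted p = 6.12e-08) and 16.5-fold lower than in old rats (log2 -4.04 ± 0.36, adjusted p = 2.10e-09). Olr215, of subfamily 2ag, read -3.31 to -1.57 in pups (median -2.25), 0.30, 0.57, 0.56 and 0.21 in adult rats and 0.45, 1.18, 0.70 and 1.16 in old rats, a 6.86-fold and a 9.43-fold lower level in newborn rats (adjusted p = 6.95e-11 and 9.06e-12). In both genes pups, on one side, and the older rats, on the other, did not overlap. Olr215 was expressed in no litter, and its pup levels lay near the lowest levels well above background on pup arrays (-2.74 to -1.53). The size of its folds is therefore uncertain. Olr227 and Olr231, both of subfamily 10a, were lower in newborn than in adult rats by log2 -2.18 ± 0.28 and -2.49 ± 0.40, and Olr6, in the run at the start of the block, by -4.24 ± 0.54. Olr6 and Olr231 were each above background in 1 pup and on all adult and old arrays, so the sizes of their differences rest on newborn levels near background.

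Olr3, of the run up to Olr8, had an adult level that rests on few spots. Pups read 0.04 to 1.31 (median 0.90) and old rats 2.53, 2.63, 2.48 and 2.67, without overlap (log2 -1.81 ± 0.11, limma adjusted p = 2.29e-11). On 6 of the 8 adult arrays its spot was flagged as an outlier or non-uniform and was left out, so its adult level comes from 1 array each of adult rats 14 and 15, at 3.77 and 3.89. On these, newborn rats were below adult rats (log2 -3.06 ± 0.15, adjusted p = 3.91e-13) and adult rats were above old rats (log2 1.26 ± 0.18, adjusted p = 7.23e-06). In the authors' deposited normalized values, which keep all arrays, the same differences were -4.79 and 2.98.

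Between newborn and old rats the members leaned further to one side. Of 200 members, 8 were called higher in newborn rats (4%; 20.4% of all 41012 probes) and 117 lower (58.5%; 22.7% of all probes), with a median log2 difference of -1.40 against -0.04 over all probes. Class I had 68 of 114 called lower (median -1.41) and class II 45 of 78 (median -1.39), and of the 936 receptors elsewhere 585 were called lower (median -1.54). Every pup lay below every old rat for 73 members (12.0% of all probes) and above for 2, Olr41 and Olr167 (10.3% of all probes). With L1 alone, the litter scanned on the same day as the old rats, 5 members were called higher (13.4% of all probes in that comparison) and 80 lower (18.8% of all probes). No member called higher was well above background in both groups: Olr23, Olr156 and Olr201 had bounds of 1.35-fold, 1.76-fold and 1.37-fold (not called with the floor of 0.25), and Olr41, Olr119, Olr167, Olr180 and Olr252 were too close to background for a bound. At both older ages, 49 members were called higher than in newborn rats. The share of all probes with this joint call is not given here, so the count is not read as particular to the members.

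Between adult and old rats few members were called higher, and the share called lower was close to that of all probes. Of 200 members, 3 (Olr3, Olr23 and Olr34) were called higher in adult rats (1.5%; 11.7% of all probes) and 44 lower (22%; 20.2% of all probes), with a median difference of -0.79 against -0.13 over all probes. Class I had none called higher and 28 of 114 lower (median -0.99), and class II 3 higher and 13 of 78 lower (median -0.54). Every adult rat lay below every old rat for 77 members (27.6% of all probes) and above for 5, Olr3, Olr23, Olr32, Olr34 and Olr119 (16.0% of all probes). For 33 members, newborn and adult rats were each called below old rats while newborn rats were not called below adult rats. No share over all probes is given for this joint pattern, so whether it is more frequent among the members is not known. These counts rest on 4 rats per group scanned on different days, and 72 members were called lower in adult rats after a different background correction with quantile normalization, 68 with every array as a sample.

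Olr91, a class I receptor of family 52, shows this order with all arrays above background. Pups read -1.34 to 0.72 (median -0.15), adult rats 1.05, 0.23, 0.55 and -0.15, and old rats 1.93, 2.44, 2.11 and 2.61, all above every younger rat. The difference from old rats was -2.38 ± 0.27 for newborn (limma adjusted p = 9.12e-08) and -1.86 ± 0.34 for adult rats (adjusted p = 1.28e-04), and that between newborn and adult rats was -0.52 ± 0.27 (adjusted p = 0.106). Olr142, of family 51, stepped up at both ages: newborn rats were below adult rats by log2 -1.46 ± 0.31 and below old rats by -2.96 ± 0.31, and adult rats below old rats by -1.50 ± 0.40, the last call being lost without adult rat 14 or 16 or old rat 18 (adjusted p = 0.0122 to 0.0165). With Olr91, Olr62 (-1.91 ± 0.31), Olr137 (-1.83 ± 0.34), Olr152 (-1.81 ± 0.34), Olr185 (-2.10 ± 0.45) and Olr237 (-1.83 ± 0.24) had the largest called log2 differences of adult minus old rats among members whose rats did not overlap and were well above background in both groups. Of these 6 only Olr237, a 5p receptor, was also called lower in newborn than in adult rats (-0.63 ± 0.18, adjusted p = 0.00510), a call lost without adult rat 14, 15 or 16 (adjusted p = 0.0129 to 0.0360), with normexp (0.0129) and with litter means (0.0276). With the slide or the rat as a random block, Olr185 kept its difference but not its call (adjusted p = 0.0138 and 0.0151).

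Olr23 and Olr34, both of subfamily 14c in the run from Olr10 to Olr34, went the other way. Olr23 read -2.80 to -0.76 in pups (median -1.44), -1.20, -0.97, -0.91 and -0.96 in adult rats and -3.43, -2.56, -2.87 and -2.58 in old rats, and was above background in 12 pups, on all 8 adult arrays and on no old array. Adult rats were at least 2.14-fold above old rats (limma adjusted p = 1.33e-04). For Olr34, above background in 10 pups, on all 8 adult arrays and on no old array, the bound was 1.87-fold (adjusted p = 0.00526), a call lost on leaving out any of the 4 adult rats or old rat 17, 19 or 20 (adjusted p = 0.0101 to 0.0177).

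Calls were not spread evenly along the long run. Its 174 members were divided in chromosome order into 6 stretches of 29. In the stretch from Olr202 to Olr237, which is class II but for its first member and Olr220, whose class is unassigned, 16 of 29 were called lower in newborn than in adult rats and none higher, with a median log2 difference of -1.15. The other 5 stretches had 5 to 7 called lower, and medians of -0.52 to -0.18. Over all probes, 19.8% were called lower and 26.8% higher in newborn than in adult rats. The last stretch, Olr239 to Olr285, where most of the 5p subfamily lies, had 4 called higher and 5 lower. Against old rats the same 2 stretches stood at the ends of the range, with 25 called lower (median -1.78) and 10 called lower (median -0.76), while the 4 class I stretches had 15 to 18. For adult against old rats the number called lower was 4 to 8 in all 6 stretches. Over all probes, 22.7% were called lower in newborn than in old rats and 20.2% lower in adult than in old rats. Of the 936 receptors elsewhere, none of class I, 423 were called lower in newborn than in adult rats (median -0.92). Against old rats 585 of the 936 were called lower (median -1.54). The stretch from Olr202 to Olr237 is therefore not read as unlike class II receptors elsewhere.

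**Figure D3:**
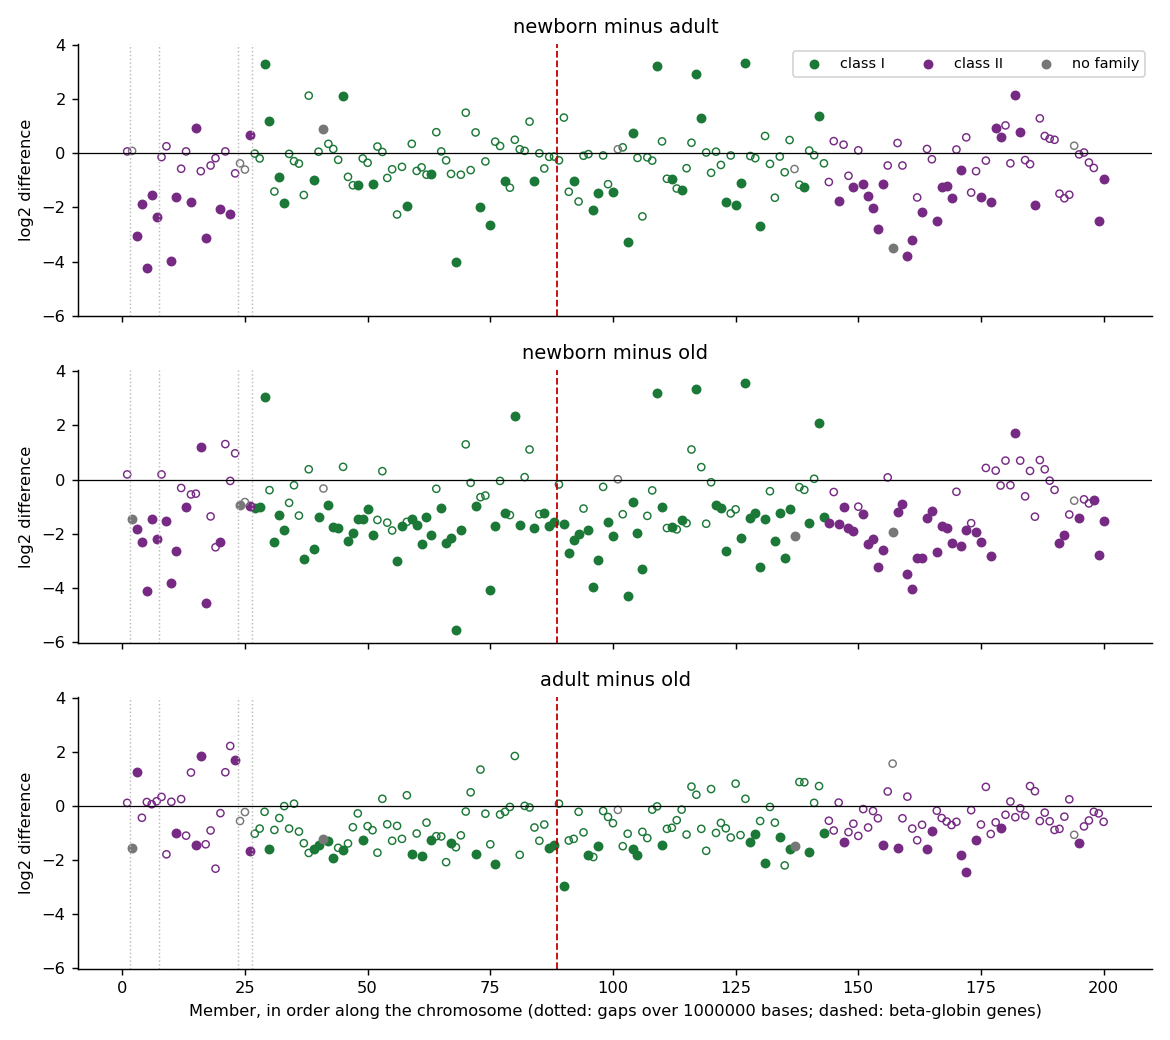
Log2 difference of each of the 200 members (y axis) by its order along chromosome 1 (x axis), for newborn minus adult, newborn minus old and adult minus old rats. Filled points are called at an adjusted p under 0.01, dotted lines mark gaps of more than 1000000 bases and the dashed line the beta-globin gene. The lowest points of newborn minus adult rats are Olr6 of class II (-4.24) and Olr104 of class I (-4.03), both expressed in no litter.

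**Figure D4:**
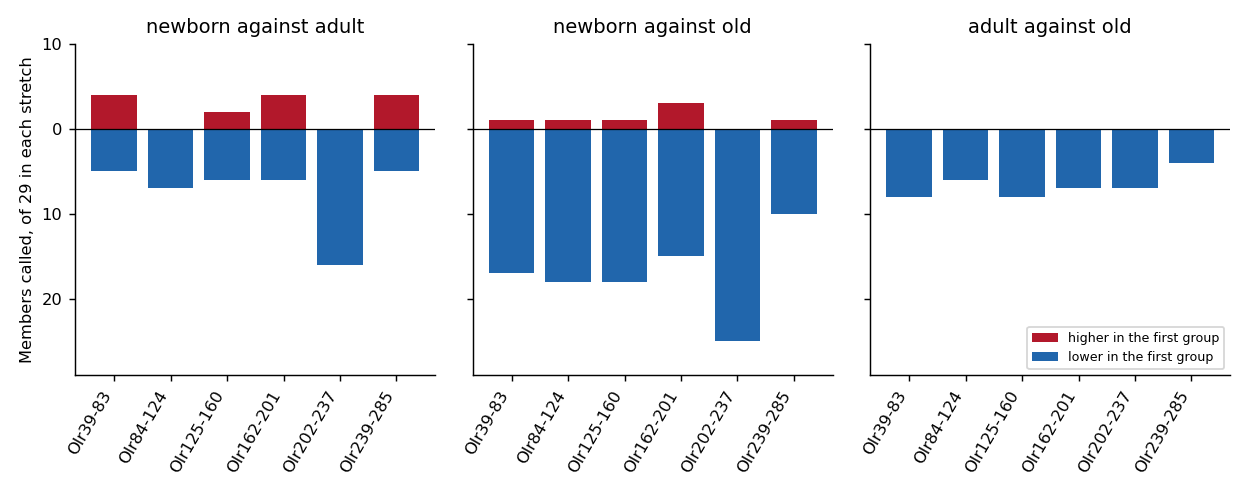
Number of members called higher (upward bars) and lower (downward bars) in each stretch of 29 members of the long run, from Olr39 on the left to Olr285 on the right, for the 3 comparisons. The stretch from Olr202 to Olr237 has 16 members called lower in newborn than in adult rats and 25 called lower than in old rats. Over all probes the shares called lower were 19.8% and 22.7%, and of the 936 receptors elsewhere 423 and 585 were called lower.

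By family, the counts ranged widely. Of the 10 family 6 members, 7 ahead of the long run and 3 inside it, 8 were called lower in newborn than in adult rats (median -1.82). The 6 members of subfamily 10a had 4 called lower (median -1.56), the 11 of subfamily 2ag had 5 and the 6 of subfamily 2d had 3, with none called higher in any of them. Against old rats 8 of 10, 6 of 6, 8 of 11 and 6 of 6 were called lower. The 26 members of subfamily 5p, from Olr235 to Olr279, had 4 called higher and 3 lower than adult rats (median -0.15) and 7 called lower than old rats (median -0.53). Within class I, families 51 and 52 had similar shares called lower in newborn than in adult rats, 9 of 40 and 14 of 66. On the near and far sides of beta-globin, 12 of 61 and 12 of 53 class I members were called lower in newborn than in adult rats, and 38 and 30 were called lower than in old rats. In the short run up to Olr8, 5 of 6 were called lower in newborn than in adult rats (median -2.11) and 6 of 6 lower than in old rats. Over all probes, 19.8% were called lower and 26.8% higher in newborn than in adult rats, and 22.7% were called lower than in old rats. Differences between stretches, families and classes are descriptions of the members and were not tested.

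The 4 litters differed from each other for 14 members (7%; 22.6% of all probes). L2 had the lowest mean in 11 of the 14 and in 96 of all 200 members, and L1 the highest in 9 of the 14. Over all 200 members L3 had the highest mean most often, in 94, whereas L1 was highest in 48 and lowest in 72. Litter means of Olr93, a class I receptor, were -0.89, -2.19, -1.10 and -1.45 for L1 to L4 (limma adjusted p = 1.95e-04), and those of Olr95, its near neighbour of the same subfamily, -2.02, -3.24, -1.33 and -1.69 (adjusted p = 8.81e-04). Olr120 and Olr130 were close to background, above it in 2 pups and 1 pup, with L2 again lowest (-5.11 and -5.58). Olr3 differed in another way, with L1 lowest at 0.28 and the other litters at 0.84 to 1.07 (adjusted p = 8.10e-04). With the slide as a random block none of the 14 calls was kept, and 29 members had an unadjusted p under 0.05 in that limma fit. Litters and slides overlap almost wholly, as each litter had 3 or 4 of its arrays on 1 slide.

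Among the 33 members above background on all 35 arrays, Olr264, Olr282, Olr247, Olr60 and Olr172 had the smallest spread of the 6 group means. Olr264, a 5p receptor, was not called in any comparison of ages, with log2 differences of 0.54 ± 0.18 for newborn minus adult, -0.04 ± 0.18 for newborn minus old and -0.57 ± 0.23 for adult minus old rats (limma adjusted p = 0.0156, 0.895 and 0.0539). Olr247, also 5p, was called higher in newborn than in adult rats (0.61 ± 0.12) and lower in adult than in old rats (-0.83 ± 0.16). Olr60 was called lower in adult than in old rats (-1.30 ± 0.31), so that even these members moved with age. Olr60 and Olr282 were called lower in newborn than in old rats (-0.95 ± 0.24 and -0.76 ± 0.20), but both lost this call with the slide as a random block (adjusted p = 0.0149 and 0.0290), with litter means (0.0194 and 0.0182) and without old rat 18 (0.0160 and 0.0253) or 20 (0.0136 and 0.0111).

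Of the block members that the study itself names, those not yet described showed 3 patterns. Olr157 and Olr229 were above background on all arrays, were not called between newborn and adult rats (0.44 and 0.16) and were called lower than old rats in newborn (-1.0 and -1.41) and adult rats (-1.44 and -1.58). Olr78 was called lower in newborn than in adult (-1.13) and old rats (-2.04), the first call being lost without adult rat 13 (-0.94, limma adjusted p = 0.0181) or 15 (-1.05, adjusted p = 0.0110). Olr49 was above background on no array, Olr226 on 1 newborn and 1 old array and Olr148 on 7 of 35. Olr263, a 5p receptor above background in 13 pups and on 4 adult and 3 old arrays, differed from adult rats by 0.64 ± 0.23, which was not called (adjusted p = 0.0239). The members had been chosen by the study partly for their pattern on these arrays, so these values are not independent evidence of it.

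Near-identical probes limit what can be credited to 1 gene. There were 6 pairs of members whose probes share at least 50 of 60 bases, Olr50 with Olr74, Olr159 with Olr168, Olr172 with Olr174, Olr186 with Olr189, Olr232 with Olr233 and Olr278 with Olr279. Olr172 (Or52n2) at chr1:162666890-162666949 and Olr174 (Or52n2f) at chr1:162685653-162685712, both on the minus strand, are shown because the first is among the members with the smallest spread of group means. They share 54 bases when one is moved along by 1 base, and capitals mark the bases that do not match, overhang included.
Olr172: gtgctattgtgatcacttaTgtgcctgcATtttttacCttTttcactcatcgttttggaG
Olr174: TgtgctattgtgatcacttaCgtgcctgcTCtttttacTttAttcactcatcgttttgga
Their log2 differences were 0.06 and -0.43 for newborn minus adult rats, neither called, and -0.93 and -1.05 for newborn minus old rats (limma adjusted p = 0.00388 and 9.40e-04), the call of Olr172 being lost with the slide as a random block (0.0158) and without old rat 18, 19 or 20 (0.0167 to 0.0191). Whether 1 transcript binds both probes was not tested. The pair of probes for Olr196 gave -1.16 (adjusted p = 0.0141) and -1.26 (adjusted p = 0.00316) for newborn minus adult rats, so that 1 of them was called.

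Other genes lie between the receptors. Within the runs there are 87 probes for 80 other gene names, of which 22 were called higher and 24 lower in newborn than in adult rats (median 0.17; 26.8% and 19.8% of all probes). Against old rats 12 were called higher and 27 lower in newborn rats (median -0.03; 20.4% and 22.7% of all probes), and 4 were called higher and 25 lower in adult than in old rats (median -0.21; 11.7% and 20.2% of all probes). Whether they differ from the receptors in this was not tested. The olfactomedin gene Olfm5, at 162084738 inside the class I stretch, was 58.8-fold higher in newborn than in adult rats (log2 5.88 ± 0.24, limma adjusted p = 3.26e-15) and 14.8-fold higher than in old rats. Cnga4, at 163236259 between class I and class II, codes for a subunit of the olfactory cyclic nucleotide-gated channel and was 4.74-fold lower in newborn than in adult rats (log2 -2.24 ± 0.16, adjusted p = 3.30e-11) and 7.58-fold lower than in old rats. Hbb, a red cell gene, was higher in newborn than in adult rats (log2 1.66 ± 0.25, adjusted p = 4.70e-06) and not called against old rats (0.32, adjusted p = 0.303). The embryonic globin Hbe1 was 24.4-fold higher in newborn than in adult rats (adjusted p = 8.70e-08) by the probe starting at 161732783. That probe was above background on only 2 adult arrays (adult mean -4.96), so the size of its fold is uncertain. A second Hbe1 probe, starting at 161733933, was above background on no array and was not called (log2 0.36, limma adjusted p = 0.301).

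The genes through which these receptors act leaned the same way in newborn rats. Of 27 genes of olfactory transduction, receptor transport and receptor gene choice, 24 were on the array. In newborn rats 14 were called lower and 3 higher than in adult rats (19.8% and 26.8% of all probes). Against old rats 15 were called lower and 3 higher (22.7% and 20.4% of all probes). In adult rats 6 were called lower and 1 higher than in old rats (20.2% and 11.7% of all probes). Gnal (log2 -2.03 for newborn minus adult), Adcy3 (-2.67), Cnga2 (-1.90) and Omp (-2.41), the olfactory marker protein of mature neurons, were among those lower. Emx2 (0.58) and Kdm1a (0.62), which act in receptor gene choice, were called higher, as was the RNA of Atf5 (0.81). Emx2 (0.69) and Kdm1a (0.23) were also called higher in newborn than in old rats. Atf5 was not called against old rats (-0.33) and was called lower in adult than in old rats (-1.14). The chromatin and enhancer factors Lhx2, Ldb1 and Ebf1 were not called. Ebf2 was called lower in newborn than in adult rats (-1.32) but not against old rats (-0.51). Ebf3 was not called against adult rats (0.22) and was called higher in newborn than in old rats (0.54). The relation of these genes to the level of any 1 receptor was not tested.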

How the data were processed

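The 35 deposited files hold the scanner output of Agilent 44K whole rat genome arrays, 1 array each, hybridised with Cy3-labelled cRNA from right or left olfactory epithelium. The authors scanned the arrays and extracted spots with Agilent Feature Extraction 9.5.1.1 (adult) or 9.5.3.1 (all others). The deposited processed signal is a background-subtracted intensity on a linear scale, and the deposited flags are whole-number calls per spot, read here as other values. In the study's methods, intensities were divided by the median of their array and then by the median of each gene over all arrays. The series table deposited by the authors was read as holding such ratios and served only as an alternative.

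Spots flagged as non-uniform or as outliers were left out, which removed 7 values over 2 of the 200 members, and the remaining spots of each of 41012 probes were averaged. Intensities were divided by the median of their array, as in the methods, floored at 0.01 and taken to log2. Both arrays of a rat were averaged, and limma 3.58.1 (lmFit and eBayes, R 4.3.3) was fitted to 27 rats in 6 groups over all probes, with Benjamini-Hochberg adjustment and calls under 0.01. Whether pups of a litter were handled apart after birth is not given in the sources used here. Each litter was a group of its own in the fit, so p-values measure the spread between rats within a group. Variation between litters does not enter the error of the newborn comparisons, except where litter means were used as replicates. Where a group was well above background on no array, the fold is a lower bound, the mean of the brighter group over, per array, the higher of the dim probe and the lowest signal well above background. Gene names came from the array files, and family symbols from a RefSeq table of build GRCr8 (195 members matched by accession, 2 by synonym, 3 not), whose coordinates were not used; 19 members are annotated to several accessions. Positions are those of the files (rn3). Precision is limited by the number of arrays.

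The members, gene lists and rules were chosen with earlier results of these data known. Named members were those the study names; for each comparison and direction, up to 6 with the largest called difference, without overlap and measured in both groups, and up to 4 with the largest called bound; the 5 with the smallest p among litters; the 5 steadiest; members expressed only in newborn, or only in adult and old rats; and partners with near-identical probes. The pipeline was tested on simulated data. Alternatives covered the scaling, the floor, normexp background correction (offset 50), the authors' table, the filter on dim probes, the unit of replication, slide and rat as random blocks, the test and leaving out each rat. The choices of the litters L2 to L4 alone and of the slide block for single members were added after seeing the data. Python 3.11.15 with numpy 2.4.6, pandas 2.3.3 and scipy 1.17.1 was used.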

Additional observations from a re-analysis of the deposited data

Results flagged for a closer look

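Among the named members and the counts above background, 166 sets of 4 or 5 rats were examined for a single rat far from the rest of its group, with Dixon's 95% critical value. Of these, 12 held such a rat, and chance alone gives about 1 in 20. The number in brackets is the gap to the nearest rat as a share of the group's range.

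Pup 30 of L3 was low for 5 members. It read -0.49 for Olr91 where its litter read 0.43 to 0.72 (0.758), -1.14 for Olr152 against -0.39 to -0.15 (0.754), -2.0 for Olr201 against -1.12 to -0.76 (0.715), -2.10 for Olr263 against -1.27 to -1.05 (0.788), and -0.47 for Olr264 against 0.40 to 0.61 (0.803). Old rat 17 was low for 3 members, with 1.21 for Olr78 against 1.85 to 1.97 (0.843), 0.61 for Olr152 against 1.46 to 1.59 (0.870) and 0.95 for Olr172 against 1.52 to 1.60 (0.876). Old rat 20 was high for Olr12, at 0.24 against -0.69 to -0.67 (0.977), and for Olr224, at 3.35 against 2.27 to 2.40 (0.874). Pup 24 of L2 was high for Olr237, at -0.17 against -1.27 to -1.15 (0.885). Adult rat 16 had 94.5 members above background, the other adult rats 108.0 to 110.5 (0.844). The sides of rat 16 gave 130 and 59.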

How the results depend on the processing

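Of 77 called differences of named members, 49 kept their call under all alternatives examined for single members, 28 lost it under at least 1, and none of the 135 differences examined reversed. Not examined for single members were the filter on dim probes, every array as a sample, and L1 alone. Fits to only the groups compared and the t-test of the methods were not examined for them either. Members called higher in newborn than adult rats numbered 16, and 10 with normexp, 10 with the slide as a random block, 4 with a floor of 0.25 and 6 among probes expressed in all groups; 8 to 17 on leaving out 1 rat. Those called lower numbered 56, and 20 among probes expressed in all groups; 40 to 60 without 1 rat. Members called higher in newborn than old rats numbered 8, and 4, 0 and 1 with normexp, the floor and the expressed probes, and 5 with L1 alone; 7 to 10 without 1 rat. Those called lower numbered 117, and 47 among expressed probes; 90 to 119 without 1 rat. Members called higher in adult than old rats numbered 3, and 0 among expressed probes, 5 with every array as a sample and 5 with litter means; 2 to 4 without 1 rat. Those called lower numbered 44, and 72 with normexp and 68 with every array; 30 to 47 without 1 rat. Litters differed for 14 members, and for 8 with normexp, 6 with the floor, 5 among expressed probes and 0 with the slide block; 10 to 25 without 1 rat, the highest without L2 rat 24. Only 54 members are tested among probes expressed in all groups, which lowers these counts by construction; the cause of the other shifts was not tested. Scaling to the 75th percentile gave 12 higher and 67 lower in newborn than adult rats. Requiring only positive and significant spots made 150, 133, 151, 146, 150 and 158 members expressed in L1, L2, L3, L4, adult and old rats, and requiring every array 59 in L3 and 56 in adult rats. Leaving out 1 rat gave 59 to 81 in L1, 55 to 66 in L2, 70 to 89 in L3, 79 to 84 in L4, 82 to 93 in adult and 102 to 109 in old rats. The choice of L2 to L4 alone, added after seeing the data, moved no count beyond 1.5 times. No paired analysis was possible because the groups share no replicate numbers. Probes near background on dim arrays limit the order that can be read.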
